A study of Mus musculus with 6 samples.

Results

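The dental mesenchyme transcription factors described here are 10 genes, Pax9, Barx1, Lhx6, Lhx8, Osr2, Prrx1, Prrx2, Tfap2b, Twist1 and Runx2, taken by symbol from the 23420 gene symbols counted in mouse tooth germs. All 10 passed the filter on low counts, which kept 15284 symbols. RNA came from tooth germs of C57BL/6 embryos at E15.5, in 3 wild-type libraries and 3 Smad7-/- libraries. The product of Smad7 is a SMAD of the inhibitory class, a brake on signalling by TGF-beta and BMP receptors. How the Smad7 allele was made, whether mutants and controls were littermates, which teeth were taken and whether germs were pooled are not given in the sources used here. The labels do not say that the libraries came from separate embryos, and p-values therefore rest on a spread that may be technical in part.

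A tooth forms from an epithelium that buds into condensing mesenchyme of cranial neural crest origin. The mesenchyme carries a set of transcription factors that give it dental identity, answer BMP, FGF and activin signals from the epithelium, and switch on the signals it sends back. Loss of Pax9, of Runx2, or of Lhx6 together with Lhx8 arrests molar development in mice, whereas loss of Osr2 gives extra teeth.

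Libraries held 37591888 to 56575476 counts, and levels are CPM, that is counts relative to the library total after scaling by TMM (trimmed mean of M-values). Smad7 itself was counted 859 to 1097 times in wild-type libraries and 41 to 80 times in Smad7-/- libraries (edgeR log2 change -3.80 ± 0.33 SE, adjusted p = 0.00749), which matches the labels. Xist reads marked wild-type library 1 and Smad7-/- library 3, and the other 4 libraries had Ddx3y reads. Each genotype thus held libraries of both sexes, and so of more than 1 embryo. Whether libraries of the same sex and genotype came from separate embryos is not known. On the first principal component, with 33.5% of the variance, wild-type library 1 and Smad7-/- libraries 1 and 2 lay on the negative side and the other 3 libraries on the positive side, a division that no label explains.

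All 10 dental mesenchyme factors had higher mean levels in Smad7-/- than in wild-type tooth germs, by 1.25-fold (Prrx2) to 1.67-fold (Tfap2b). Their median log2 change was 0.54, beside -0.0028 for all 15284 genes tested, of which 49.1% were above 0. In 9 of 10 genes each Smad7-/- library lay above each wild-type library, Lhx8 being the exception, while 4.97% of all genes tested showed this. None of the 10 passed the edgeR quasi-likelihood test after Benjamini-Hochberg adjustment over all genes, which called 0.0262% of genes in either direction and 0.0131% on the higher side (adjusted p = 0.521 for Prrx1 to 0.995 for Prrx2). Without adjustment 8 of the 10 had a p under 0.05 on the higher side, as did 3.26% of all genes. DESeq2 called 2 of the 10, Prrx1 and Tfap2b, both higher, and 0.351% of the genes it tested in either direction (0.262% higher), and limma-voom called 0. The genes were chosen with these changes known, so the counts describe the list and do not test it. In whole tooth germs, more mesenchymal cells and more RNA of these genes per cell cannot be told apart.

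**Figure D1:**
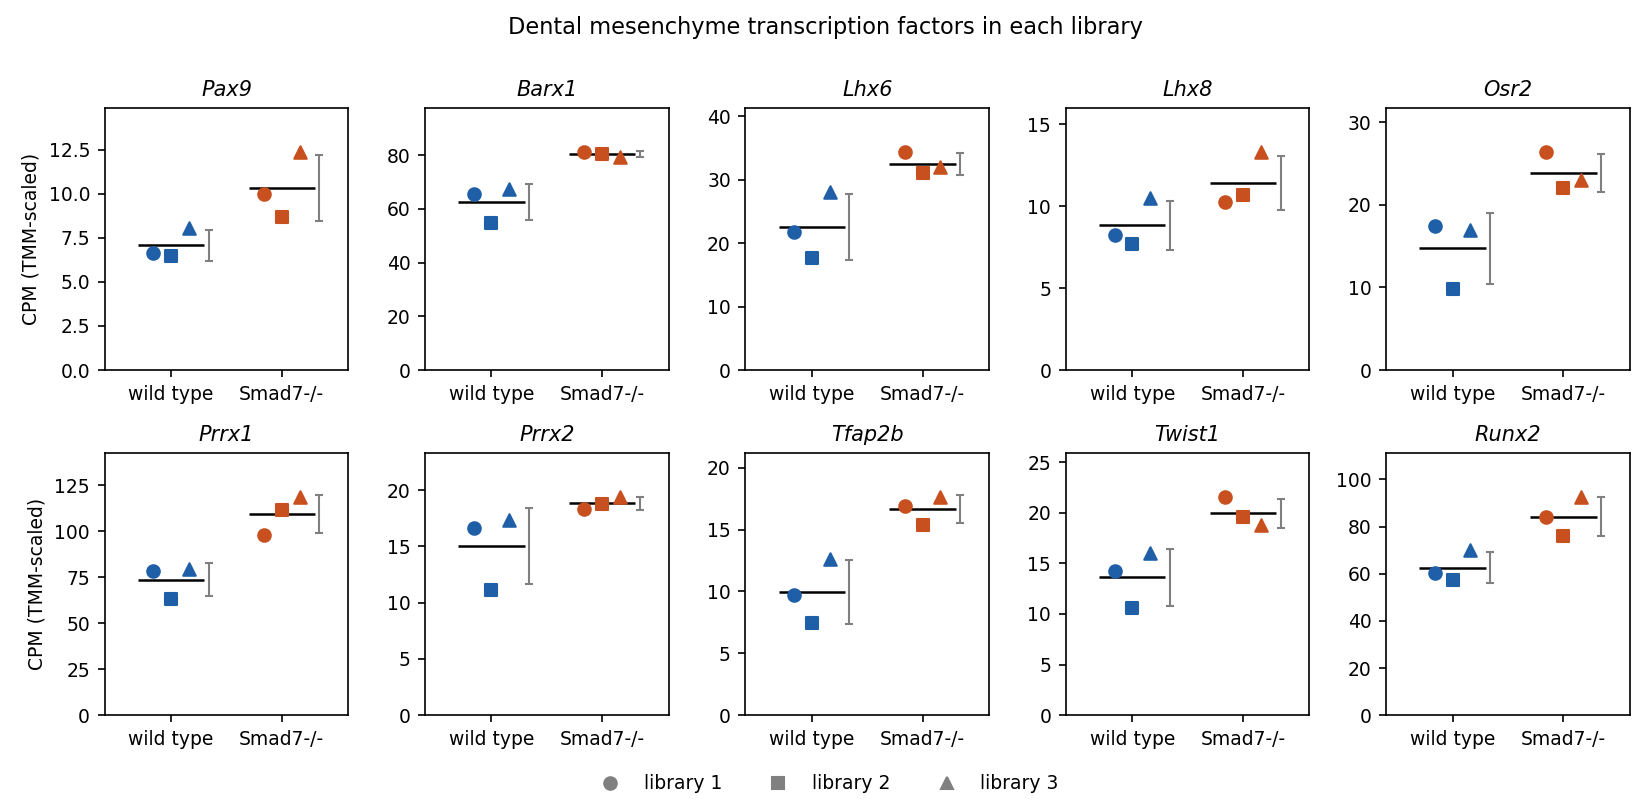
TMM-scaled CPM (vertical axes, each from 0) of the 10 dental mesenchyme factors in 3 wild-type (blue) and 3 Smad7-/- (orange) libraries; symbols mark the library number, black lines the mean and grey bars the SD. The groups are apart in every panel except Lhx8, and wild-type library 2 (square) is the lowest of the 6 libraries in each panel.

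Prrx1 and Prrx2 are paired-related homeobox genes of craniofacial and limb mesenchyme, which act together in forming the lower jaw. Prrx1 stood at 78.3, 63.2 and 79.5 CPM in the wild-type libraries and at 97.9, 111 and 119 CPM in the Smad7-/- libraries. The lowest Smad7-/- library exceeded the highest wild-type library, and the fitted log2 change was 0.57 ± 0.11 SE (n = 3 per group; edgeR adjusted p = 0.521; DESeq2 0.57 ± 0.13, adjusted p = 0.00865). Prrx2 stood at 16.6, 11.1 and 17.3 CPM in wild type and at 18.3, 18.8 and 19.4 CPM in Smad7-/-. Its groups were also apart, and its change was the smallest of the 10 (log2 0.32 ± 0.16; edgeR adjusted p = 0.995). Without wild-type library 2, its lowest, the log2 change of Prrx2 was 0.15 ± 0.14.

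Tfap2b encodes AP-2 beta, a transcription factor of the neural crest and its facial derivatives. It stood at 9.71, 7.48 and 12.6 CPM in wild type and at 16.9, 15.4 and 17.6 CPM in Smad7-/-. This was the largest change of the 10 genes (log2 0.74 ± 0.18; edgeR adjusted p = 0.608; DESeq2 0.74 ± 0.19, adjusted p = 0.0341). Among all genes tested its change lay at percentile 98.5. Osr2, a zinc finger factor of the odd-skipped family that limits the field in which teeth form, was at 17.4, 9.74 and 17 CPM in wild type and at 26.4, 22 and 23 CPM in Smad7-/-. Its wild-type spread was the widest of the 10 (CV 29.3%), with library 2 low, and its log2 change was 0.69 ± 0.21 (edgeR adjusted p = 0.705).

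The sequences before the start sites of Tfap2b, Prrx1, Twist1 and Pax9 are shown as examples. Tfap2b and Prrx1 were the genes DESeq2 called. Twist1 and Pax9 had their groups apart, which does not single them out, since all of the 10 genes but Lhx8 had this. They come from RefSeq (GRCm38.p6, the mm10 assembly), where 9 of the 10 genes had an entry, and they run 5′ to 3′ on the strand of the gene. Bases annotated as exon in GENCODE M21 were left out, which shortens Prrx1 to 190 bases, and the other 3 have 250. Tfap2b is at chr1:19211804-19212053 (forward), Prrx1 at chr1:163313711-163313900 (reverse), Twist1 at chr12:33957421-33957670 (forward) and Pax9 at chr12:56695221-56695470 (forward). The Tfap2b and Pax9 windows lie inside introns of longer annotated transcripts, and the Prrx1 and Twist1 windows overlap no annotated transcript. Capitals mark 3 motifs searched on both strands: CAGAC, the SMAD box bound by SMAD3 and SMAD4, which reads GTCTG on the opposite strand; GGCGCC, a GC-rich site that SMADs also bind; and TAATTA, a site of homeodomain proteins.
Tfap2b: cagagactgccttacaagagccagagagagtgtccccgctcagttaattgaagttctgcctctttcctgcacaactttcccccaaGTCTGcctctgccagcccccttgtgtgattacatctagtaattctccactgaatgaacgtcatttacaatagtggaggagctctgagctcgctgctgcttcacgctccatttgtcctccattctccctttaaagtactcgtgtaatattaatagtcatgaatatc
Prrx1: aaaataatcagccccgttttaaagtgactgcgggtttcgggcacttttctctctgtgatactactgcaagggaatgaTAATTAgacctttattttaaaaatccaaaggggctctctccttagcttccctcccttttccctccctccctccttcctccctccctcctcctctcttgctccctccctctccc
Twist1: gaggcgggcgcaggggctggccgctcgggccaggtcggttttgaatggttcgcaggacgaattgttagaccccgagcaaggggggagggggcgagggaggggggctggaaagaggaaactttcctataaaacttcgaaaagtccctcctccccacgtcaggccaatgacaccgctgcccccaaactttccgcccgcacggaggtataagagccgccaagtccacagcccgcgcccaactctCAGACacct
Pax9: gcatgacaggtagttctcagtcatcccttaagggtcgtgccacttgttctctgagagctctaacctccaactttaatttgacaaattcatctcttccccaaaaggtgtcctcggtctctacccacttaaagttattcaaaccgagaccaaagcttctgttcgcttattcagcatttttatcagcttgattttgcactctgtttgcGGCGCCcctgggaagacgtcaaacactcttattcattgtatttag
Each of these sequences held 1 match, so no motifs overlapped in them. They do not stand for the whole list. With exon bases left out, the windows of Barx1, Lhx6 and Runx2 held none of the 3 motifs. That of Lhx8 held 1 CAGAC, and that of Prrx2 had no bases left. Over all 32807 windows of 250 bases, 42.2% held CAGAC, 9.59% held GGCGCC and 4.85% held TAATTA. The 9 genes with an entry have 11 windows of 250 bases. Of these 11 windows, CAGAC was in 5 (Lhx6, Lhx8, Prrx1, Tfap2b and Twist1), GGCGCC in 2 (Barx1 and Pax9) and TAATTA in 1 (Prrx1). The mean number of CAGAC matches was 0.455 per window, beside 0.569 over all windows. The CAGAC match of Prrx1 is in bases annotated as exon and is not shown. A match is a description of the letters and says nothing about binding in these tooth germs.

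Barx1, a homeobox gene that marks the molar-forming mesenchyme, had the tightest Smad7-/- values of the 10. It stood at 65.4, 54.8 and 67.3 CPM in wild type and at 81.2, 80.5 and 79.1 CPM in Smad7-/- (log2 0.36 ± 0.10; edgeR adjusted p = 0.642). Its CV was 10.8% in wild type and 1.33% in Smad7-/-. Pax9, the paired-box gene that upholds Bmp4 and Msx1 in the tooth bud mesenchyme, had the lowest mean CPM of the 10. It was counted 321 to 386 times in wild-type libraries and 375 to 713 times in Smad7-/- libraries, which gave 6.61, 6.49 and 8.08 CPM against 9.98, 8.67 and 12.4 CPM. Smad7-/- library 3 was the highest, and the log2 change was 0.55 ± 0.18 (edgeR adjusted p = 0.766).

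Lhx6 and Lhx8 are LIM-homeobox genes of the oral side of the jaw mesenchyme with overlapping roles. Lhx6 stood at 21.8, 17.7 and 28.0 CPM in wild type and at 34.4, 31.1 and 32.0 CPM in Smad7-/- (log2 0.53 ± 0.16; edgeR adjusted p = 0.696). Lhx8 stood at 8.27, 7.72 and 10.5 CPM in wild type and at 10.3, 10.7 and 13.3 CPM in Smad7-/- (log2 0.37 ± 0.17; edgeR adjusted p = 0.964). Wild-type library 3 exceeded Smad7-/- library 1 for Lhx8, so the groups overlapped. Without Smad7-/- library 3 its log2 change was 0.24 ± 0.18.

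The ratio of related genes within a library does not depend on the scaling of libraries. Reads of Lhx6 per read of Lhx8 were 2.63, 2.29 and 2.66 in wild type and 3.35, 2.91 and 2.40 in Smad7-/-, with overlapping groups. Reads of Prrx1 per read of Prrx2 were 4.71, 5.67 and 4.59 in wild type and 5.35, 5.94 and 6.11 in Smad7-/-, where wild-type library 2 exceeded Smad7-/- library 1. The log2 difference for Lhx6 over Lhx8 was 0.18, with a pooled SD between libraries of 0.19 (exact two-sided permutation p = 0.4). That for Prrx1 over Prrx2 was 0.22, above its pooled SD of 0.14, with overlapping groups (exact p = 0.2). The adjusted p was 0.4 for both of the 2 pairs, and 0.1 is the smallest p that 3 against 3 libraries allow, so a threshold of 0.05 could not be reached.

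Twist1 encodes a basic helix-loop-helix factor of neural crest mesenchyme that holds back RUNX2 activity, and Runx2 encodes the runt-domain factor required for bone formation and for molar morphogenesis. Twist1 stood at 14.3, 10.6 and 16 CPM in wild type and at 21.6, 19.6 and 18.8 CPM in Smad7-/- (log2 0.55 ± 0.16; edgeR adjusted p = 0.691). Runx2 stood at 60.5, 57.3 and 69.96 CPM in wild type and at 83.9, 76.0 and 92.6 CPM in Smad7-/- (log2 0.43 ± 0.11; edgeR adjusted p = 0.630). Both genes were thus higher in the same libraries, with groups apart. The sources used here do not say whether counting used the strand, and Runx2 overlaps Supt3 and the antisense gene Runx2os1, of which Runx2os1 shares 519 bases of exon and Supt3 none. Supt3 was at 9.17 ± 1.27 CPM in wild type and 10.5 ± 0.636 CPM in Smad7-/- (SD, n = 3; log2 0.19 ± 0.15). Pax9 shares 189 bases of exon with Slc25a21 on the opposite strand, which was at 1.36 ± 0.432 and 1.80 ± 0.292 CPM.

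In mm10 coordinates (GENCODE M21) these are all protein-coding genes. Tfap2b lies on chromosome 1 at 19208914 to 19238576 and Prrx1 on chromosome 1 at 163245119 to 163313710. Lhx6 and Prrx2 lie on chromosome 2, at 36081953 to 36105408 and 30834972 to 30881251. Pax9 and Twist1 lie on chromosome 12, at 56691767 to 56712822 and 33957671 to 33959829. The others are Lhx8 on chromosome 3 at 154306294 to 154330659, Barx1 on chromosome 13 at 48662998 to 48666507, Osr2 on chromosome 15 at 35296098 to 35303305 and Runx2 on chromosome 17 at 44495987 to 44814797.

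In wild type 9 of the 10 genes shared the same order of the libraries, whereas the order in Smad7-/- differed between genes. Wild-type library 2 was the lowest of all 6 libraries for 10 of 10 genes, and wild-type library 3 was the highest wild-type library for 9 of 10, all but Osr2. In Smad7-/- the highest library was library 3 for 6 genes and library 1 for 4, and the lowest was library 2 for 5 genes, library 1 for 3 and library 3 for 2. The summed level of the 10 genes was 299, 246 and 326 CPM in wild type and 401, 394 and 427 CPM in Smad7-/-. Under TMM 9 of the 10 genes varied more in wild type (CV 10.5% to 29.3%) than in Smad7-/- (CV 1.33% to 18.2%). Pax9 was the exception, and the share among all genes was not counted. Which genotype varied more depended on the measure and on the scaling. With the SD taken relative to the wild-type mean, Lhx8, Pax9, Prrx1 and Runx2 had the larger SD in Smad7-/- under TMM, and the other genes in wild type. By that same measure, with general mesenchyme markers at equal weights, Barx1, Lhx6, Lhx8, Pax9, Runx2 and Twist1 had the larger SD in Smad7-/-. Osr2, Prrx1, Prrx2 and Tfap2b had it in wild type. The higher level in Smad7-/- was present without wild-type library 2, with a median log2 change of the list of 0.39. There 9 of 10 genes kept their groups apart (6.31% of all genes did).

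Within each side of the division of the libraries 1 genotype had a single library, so the values there are a description with no test. On the negative side, with 1 wild-type and 2 Smad7-/- libraries, the difference in mean log2 CPM was above 0 for 10 of 10 genes, with a median of 0.44. On the positive side, with 2 wild-type and 1 Smad7-/- libraries, it was above 0 for 10 of 10 genes, with a median of 0.55. The pair of libraries with Xist reads gave a median of 0.58 and the 4 libraries with Ddx3y reads 0.48, with 10 of 10 genes above 0 in each. The 10 genes vary together and were chosen with their changes known, so these counts are not independent support for the direction.

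Per kilobase of annotated exon, which allows genes to be compared, Barx1 was the most abundant factor of the set. Its level in wild type was 44.7 ± 4.81 CPM per kb (SD, n = 3), above the 8.36 ± 1.71 CPM per kb of Twist1, and the ranges of these neighbours did not overlap. Twist1, Prrx2 (7.66 ± 1.73 CPM per kb), Runx2 (7.08 ± 0.747), Prrx1 (6.66 ± 0.822), Lhx6 (4.68 ± 1.08), Osr2 (4.06 ± 1.19) and Lhx8 (3.49 ± 0.588) formed a series in which each gene overlapped the next. Tfap2b (1.57 ± 0.407 CPM per kb) and Pax9 (1.40 ± 0.175) overlapped each other and lay below the range of Lhx8. In Smad7-/- the level of Prrx1 was 9.88 ± 0.948 CPM per kb, behind Barx1 and Twist1. With the longest annotated transcript as the length, Prrx1 stood second in wild type, at 11.3 ± 1.39 CPM per kb.

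**Figure D2:**
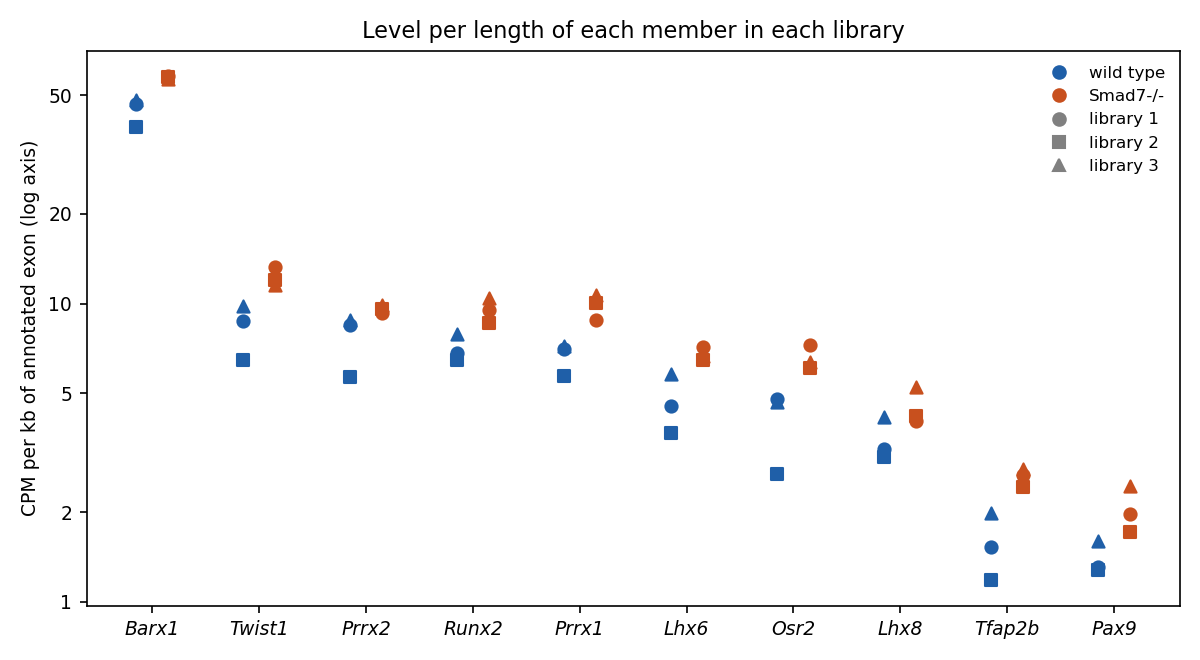
CPM per kb of annotated exon (vertical log axis) for the 10 factors, ordered by the wild-type mean, in 3 wild-type (blue) and 3 Smad7-/- (orange) libraries; symbols mark the library number. Barx1 stands apart at the top, from 39.2 to 58.1 CPM per kb, and Tfap2b and Pax9 are the lowest.

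Markers of mesenchyme in general were higher in the Smad7-/- libraries too. Of 20 such genes, among them the collagen genes Col1a1 and Col3a1 and the growth factor receptor gene Pdgfra, 20 had a fitted change above 0, with a median log2 of 0.26, and edgeR called 0 (9 had an unadjusted p under 0.05; DESeq2 called 0). Col6a1 and Col6a2, chains of type VI collagen with the smallest p of this list, stood at 0.47 ± 0.13 and 0.41 ± 0.12. The most abundant, Col1a1 and Col1a2, stood at 0.09 ± 0.18 and 0.09 ± 0.19. On the higher side 8 of the 20 markers had groups apart, beside 4.97% of all genes tested. The summed level of the list overlapped between genotypes, at 24478, 28328 and 35982 CPM in wild type and 29278, 34929 and 34283 CPM in Smad7-/-. Most of this sum came from Col1a1 and Col1a2, whose wild-type means were 11625 and 7918 CPM of 29596 CPM.

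Set against these mesenchyme markers, the dental factors still had means above the wild-type mean, but most groups then overlapped. With each marker given the same weight, a scaling chosen after the data were seen that shifts the median of all genes to -0.29, the median log2 change of the 10 genes was 0.27. Tfap2b and Prrx1 then kept their groups apart, and 0.746% of all genes did so on the higher side. Tfap2b was at 0.852 to 1.11 of its wild-type mean in wild type and at 1.29 to 1.53 in Smad7-/-, and Prrx1 at 0.934 to 1.11 and 1.18 to 1.25. The Smad7-/- means of Barx1, Lhx8 and Prrx2 were 1.06 ± 0.1, 1.06 ± 0.0761 and 1.04 ± 0.0548 of the wild-type mean, within overlapping ranges. With the summed marker counts as library size, which are mostly collagen reads and shift the median of all genes to -0.18, the median was 0.39. The groups apart were those of Tfap2b and Lhx6 (1.11% of all genes were apart on the higher side). For Lhx6 this was nearly a tie, with 1.16443 in the highest wild-type library and 1.16449 in the lowest Smad7-/- library. For Tfap2b these values were 1.18 and 1.31. Under both scalings edgeR called none of the 10 genes (adjusted p = 0.189 to 0.850 with equal weights and 0.767 to 0.846 with the sum).

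**Figure D3:**
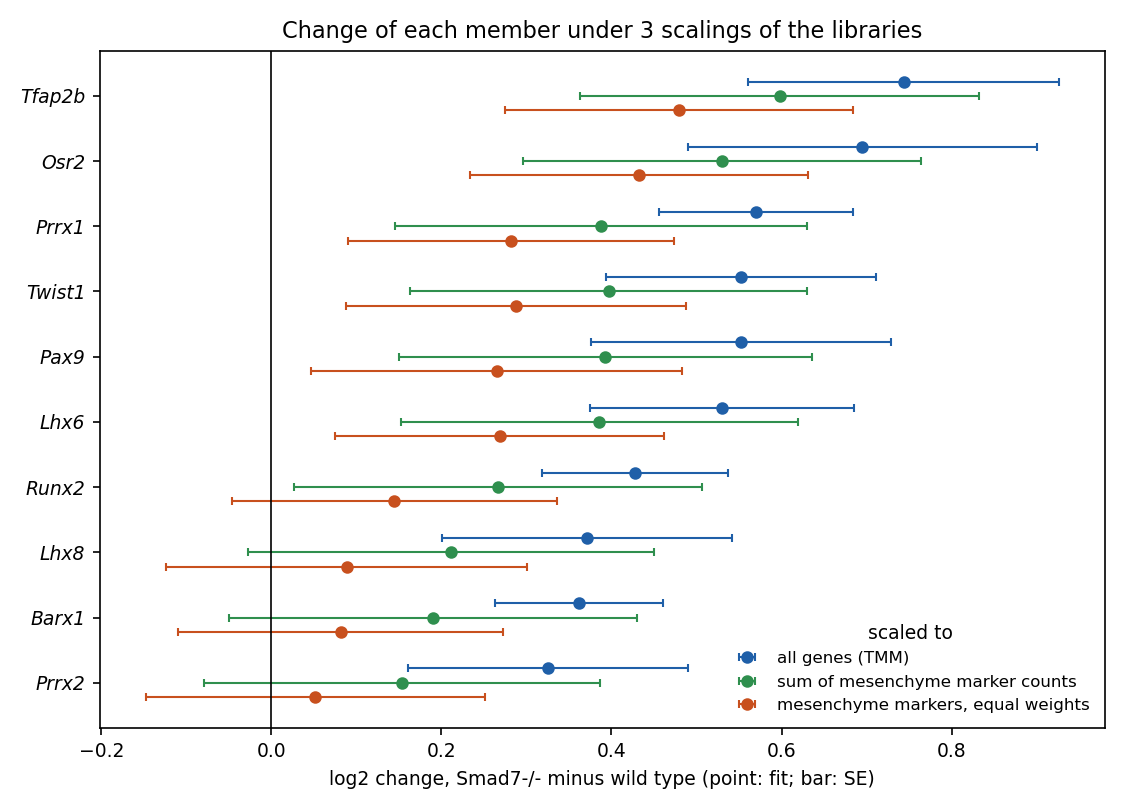
Fitted log2 change, Smad7-/- minus wild type (horizontal axis; point, fit; bar, SE; n = 3 libraries per group), of each factor when libraries are scaled to all genes by TMM (blue), to the summed counts of 20 mesenchyme markers (green) or to these markers with equal weights (orange). Every point lies above 0, and Tfap2b is the highest under each scaling, from 0.48 to 0.74.

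Other cell types of the dissection did not all move with the factors. Epithelium markers summed to 12974, 12428 and 11633 CPM in wild type and 11761, 12217 and 9985 CPM in Smad7-/-, and 17 of 21 tested markers were lower (median log2 -0.11; edgeR and DESeq2 called 0, with an unadjusted p under 0.05 for 1 higher and 1 lower). Bone-forming cell markers had a median of 0.03, with 7 of 11 higher, and summed to 10546 to 15939 CPM in wild type and 12130 to 15505 CPM in Smad7-/-. Cartilage markers had a median of 0.04, and summed to 1018 to 1436 CPM in wild type and 1147 to 1311 CPM in Smad7-/-. Schwann cell markers had a median of 0.13, and summed to 112 to 127 CPM in wild type and 120 to 122 CPM in Smad7-/-. Endothelium markers were higher in 12 of 12 genes (median 0.22), with wild-type library 2 the lowest at 293 CPM and the other 5 libraries at 393 to 450 CPM. Neuron markers had a median of -0.17, with 2 of 6 tested genes higher, and skeletal muscle markers, which summed to at most 10.8 CPM in any library, had a median of -0.76, with 2 of 9 higher.

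Macrophage and osteoclast markers separated the genotypes as the dental factors did. Groups were apart on the higher side in 8 of 12 macrophage and 7 of 8 osteoclast markers, beside 4.97% of all genes tested. Of all genes, DESeq2 called 0.262% higher, and 3.26% had an unadjusted edgeR p under 0.05 on the higher side. Macrophage markers were higher in 11 of 12 genes (median 0.58; DESeq2 called 3, edgeR 0, with 9 at an unadjusted p under 0.05), and summed to 126 to 177 CPM in wild type and 212 to 230 CPM in Smad7-/-. Osteoclast markers were higher in 8 of 8 genes (median 0.82; DESeq2 called 3, edgeR 0, with 8 at an unadjusted p under 0.05), and summed to 492 to 800 and 1093 to 1244 CPM. Red blood cell markers were lower in 7 of 7 tested genes (median -0.62; DESeq2 and edgeR called 0). On the lower side 4 of the 7 had an unadjusted p under 0.05, as did 287 of all 15284 genes tested. Groups were apart on that side in 4 of the 7, and in 598 of all genes tested. Their sums did not overlap, at 322 to 525 CPM in wild type and 252 to 304 CPM in Smad7-/-, and 3 globin genes were counted 0 times in all libraries. No marker of the macrophage, osteoclast, epithelium, endothelium or bone lists was at 0 in all libraries. The part of these cell types in the higher level of the dental factors was not tested.

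**Figure D4:**
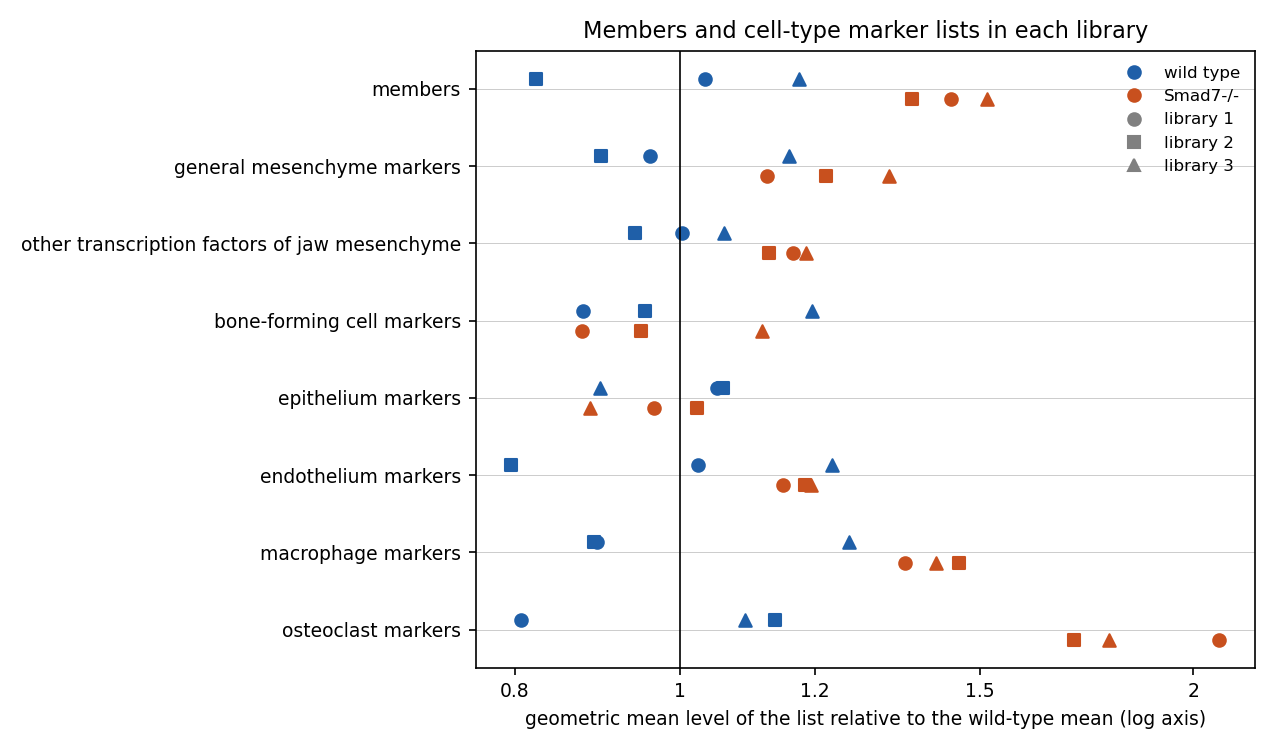
Geometric mean level of each gene list relative to its wild-type mean (horizontal log axis, wild-type mean at 1) in each wild-type (blue) and Smad7-/- (orange) library; symbols mark the library number and the row called members holds the 10 dental mesenchyme factors. The Smad7-/- libraries reach 1.37 to 1.51 for the factors, against 0.82 to 1.17 in wild type. The other transcription factors of jaw mesenchyme (1.13 to 1.18 against 0.94 to 1.06), macrophage markers and osteoclast markers are also apart. General mesenchyme, bone-forming, epithelium and endothelium markers overlap.

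Among close relatives of the factors no gene was called by edgeR or DESeq2. Of 16 paralogs 9 could be tested, 6 higher and 3 lower, with a median log2 of 0.13 (2 at an unadjusted p under 0.05, both higher). Twist2, the relative of Twist1 in dermal and facial mesenchyme, was at 6.50 ± 1.21 CPM in wild type and 9.13 ± 0.496 CPM in Smad7-/- (SD, n = 3; log2 0.49 ± 0.17). Runx3 was at 9.24 ± 2.03 and 12.9 ± 1.56 CPM (0.48 ± 0.18), with groups apart as for Twist2. Groups were apart on the higher side in 3 of the 9 tested paralogs, beside 4.97% of all genes tested. Runx1, the most abundant paralog, was at 94.2 ± 3.51 and 92.9 ± 5.34 CPM (-0.02 ± 0.09), and Tfap2a, which epithelium also expresses, was at 23 ± 5.18 and 25.3 ± 3.80 CPM (0.13 ± 0.17). Tfap2d, Lhx1, Lhx4 and Lhx5 were counted 0 times in all libraries.

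Genes for proteins that bind these factors were balanced between higher and lower. Of 33 partners and inhibitors, such as the RUNX partner gene Cbfb, the LIM cofactor gene Ldb1, E-protein genes and Id genes, 31 were tested, 16 higher and 15 lower, with a median log2 of 0.01. None passed in edgeR or DESeq2, and 1 had an unadjusted p under 0.05. That gene was Lmo4, a LIM-only protein that competes for LIM cofactors, at 30.8 ± 5.98 CPM in wild type and 38.9 ± 2.52 CPM in Smad7-/- (log2 0.34 ± 0.14). The most abundant, Tcf12, an E-protein partner of Twist1, and Id3, an inhibitor of such factors, stood at 0.10 ± 0.11 and -0.04 ± 0.08, and Cited4, the gene with the next smallest p, at -0.32 ± 0.15.

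Genes known to act downstream of the factors in tooth or bone did not pass either. Of 24, 18 were higher and 6 lower, with a median log2 of 0.11 (edgeR and DESeq2 0; unadjusted p under 0.05 for 2 higher and 1 lower). Ibsp, the bone sialoprotein gene and a target of RUNX2, stood at 139, 124 and 121 CPM in wild type and at 148, 168 and 207 CPM in Smad7-/- (0.44 ± 0.12; edgeR adjusted p = 0.655). Shh, the Hedgehog ligand of the dental epithelium, stood at 552, 598 and 488 CPM and at 449, 380 and 437 CPM (-0.37 ± 0.11; edgeR adjusted p = 0.696). Bmp4, a mesenchymal ligand, and Msx1 are the genes named above that Pax9 upholds, and both are given here after their values were seen. Bmp4 was at 0.01 ± 0.09, with overlapping groups. Msx1 was at 0.27 ± 0.13 (edgeR adjusted p = 0.995), with groups apart on the higher side, as in 4.97% of all genes tested.

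Other transcription factors of the jaw mesenchyme had a median log2 of 0.14, with 32 of 39 tested genes higher. Of the 39, 9 had groups apart on the higher side, beside 4.97% of all genes tested. The 10 dental factors had a median of 0.54 with 9 of 10 apart, and the difference between these lists was not tested. Foxf2, a forkhead gene that responds to Hedgehog, was the gene of this list that DESeq2 called (0.81 ± 0.17 in edgeR, adjusted p = 0.521; DESeq2 adjusted p = 0.00261). It stood at 40.0, 26.1 and 35.6 CPM in wild type and at 69.3, 58.1 and 51.2 CPM in Smad7-/-, again with wild-type library 2 the lowest. Foxf1 stood at 0.51 ± 0.12, and the most abundant genes of the list, Dlx3 and Msx2, homeobox genes that the dental epithelium also expresses, stood at -0.08 ± 0.09 and -0.01 ± 0.09.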

How the data were processed

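RNA of 3 wild-type and 3 Smad7-/- tooth germ samples was sequenced. The authors deposited raw counts per gene symbol, 1 table per library, aligned with HISAT2 to mm10 and counted with featureCounts, per the submitters' processing notes, which also name DESeq2 and give no versions. Counts were fitted with edgeR 4.0.16 in R 4.3.3 by the robust quasi-likelihood F-test, 6 libraries, no covariate, after filterByExpr (minimum count 10, total 15) and TMM scaling (common dispersion 0.0253). Adjustment was by Benjamini-Hochberg over all 15284 tested symbols, with a threshold of 0.05. SE is the fitted log2 change divided by the square root of F. Alternatives used DESeq2 1.42.0, limma 3.58.1, other scalings, filters, covariates and left-out libraries. Depth was 37591888 to 56575476 counts, and the sources used here name no molecular identifiers.

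The 10 genes, the other lists and the tests were chosen with earlier results of these data known. Besides the 10 genes and Smad7, up to 2 most abundant genes and up to 2 with the smallest p were named per list; 4 list symbols were matched through RefSeq synonyms. Positions and lengths came from GENCODE M21, and start-site windows from RefSeq (GRCm38.p6).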

Additional observations from a re-analysis of the deposited data

How the results depend on the processing

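All 10 factors stayed above 0 in each of 18 alternatives (180 of 180 values), and 2 of these values passed the threshold, Prrx1 and Tfap2b by DESeq2 (adjusted p = 0.00865 and 0.0341); over the alternatives their adjusted p ran up to 1.00. The count of members called was 0 in every alternative but DESeq2, where it was 2, and 0 to 0 without any single library. The median log2 change of the 10 genes was 0.39 to 0.65 without 1 library, and 0.52 with the side of the first principal component or 0.54 with sex as a covariate. Genes with groups apart on the higher side were 9 to 10 of 10 without 1 library, beside 6.31% (without wild-type library 2) to 13.05% (without wild-type library 1) of all genes, and 2 of 10 scaled to the summed mesenchyme markers or to these markers with equal weights, beside 1.11% and 0.746%. The count of all genes called, 4 in edgeR, was 59 by DESeq2, 34 scaled to the summed mesenchyme markers, 154 with these markers at equal weights, 2 among genes averaging 5 CPM or more, and 1 to 7 without 1 library; it was 2, 1 and 7 without Smad7-/- library 1, 2 and 3. The cause was not tested. Residuals of libraries with the same number correlated at 0.169, -0.034 and 0.0927, and 3 of 6 libraries correlated best with their own number. With so few libraries these values cannot settle whether the numbers pair the samples, and no label says so. With the replicate block the median was 0.55, with 0 members and 4 genes called. The SE of each member was smaller with the block than without it. Their edgeR adjusted p was then 0.194 (Tfap2b) to 0.615 (Prrx2). The log2 difference in ratio was 0.068 to 0.31 for Lhx6 over Lhx8 and 0.16 to 0.32 for Prrx1 over Prrx2 without 1 library.

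With 3 libraries per group the median SE over all genes was 0.14 on the log2 scale, and that of the 10 genes ran from 0.10 (Barx1) to 0.21 (Osr2).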
